A study of Mus musculus with 27 samples.

Results

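The genes described here encode the proteins of the cytosolic ribosome. Members were the rows of the deposited expression table whose symbol was Rpl or Rps followed by a number, with or without a closing letter or paralog number, together with Rpsa, Rplp0, Rplp1 and Rplp2. Genes of the Rps6k kinases were left out. The rule found 68 of the 16024 rows, of which 42 encode large-subunit and 26 encode small-subunit proteins, and it used names only. Among them are 6 paralogs with a symbol ending in l or l1 (Rpl3l, Rpl7l1, Rpl10l, Rpl22l1, Rpl39l and Rps27l). Rps6, Rpl5, Rpl10 and Rps27a were not analysed here.

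RNA was sequenced from 27 libraries of C57BL/6 mouse lung, from tumour-bearing and from wild-type (WT) lungs. Tumours came from HKP1 cells, a mouse lung adenocarcinoma line, injected through the tail vein. Growth time was day 20 to 25 in the tumour lungs, and WT lungs are labelled as free of tumour. Lungs were perfused and dissociated, and cells were sorted by surface markers or used unsorted as total lung cells. The groups were CD11c+CD11b+ macrophages of tumour lung (n = 3) and CD11c+CD11b- macrophages of WT lung (n = 2), CD11b+Ly6C+ monocytes (n = 2 and 2), CD11b+Ly6G+ neutrophils (n = 3 and 3), Epcam+CD11b-CD11c- epithelial cells (n = 3 and 3) and total lung cells (n = 3 and 3), tumour and WT in that order. The macrophage gate thus differed between tumour and WT lung, and the Epcam+ gate of tumour lung can hold tumour cells as well as lung epithelium. Nothing in the labels says whether each library is its own animal, and p values therefore cover only the variation among these libraries, which may be technical.

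A ribosome is built from a small subunit, which reads the mRNA, and a large subunit, which joins amino acids, and each subunit carries many different proteins on a core of ribosomal RNA. Dividing and secreting cells make large amounts of these proteins, and their mRNAs are among the most abundant in most cell types. Most of these mRNAs start with a run of pyrimidines, the terminal oligopyrimidine (TOP) tract, through which mTOR signalling controls their translation. Neutrophils are short-lived cells that make much of their granule content in the bone marrow and leave it with little further growth.

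The TOP tract is shown first because it is the sequence feature that members share and the rule did not use. RefSeq starts (GRCm38.p6) were matched for 53 members. A tract, taken as a C at the first base followed by at least 4 pyrimidines (C or T) on the gene's own strand, stood exactly at the annotated start in 11 of 53 members (20.8%) and in 813 of 27025 genes (3.01%). With a start up to 5 bases either side it was found in 26 members (49.1%) and in 21.2% of all genes. The windows below run from 10 bases before the annotated start to 15 bases from it. They show 4 members with a tract exactly at the annotated start and 3 members, whose levels the results turn on, with none exactly there. Capitals mark the tract at the start. With a start up to 5 bases either side, the windows of Rps27l and Rps9 hold a tract too. An annotated start may lie a few bases from the base most used, so these letters describe the annotation.
Rps27 (chr3:90213634-90213658, minus strand): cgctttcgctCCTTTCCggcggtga
Rpl15 (chr14:18270972-18270996, minus strand): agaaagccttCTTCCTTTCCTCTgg
Rpl35 (chr2:39005117-39005141, minus strand): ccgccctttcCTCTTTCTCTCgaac
Rplp2 (chr7:141447641-141447665, plus strand): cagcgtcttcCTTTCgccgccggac
Rps27l (chr9:66946076-66946100, plus strand, the first of its annotated starts): cctccccgccgcctctatcccggaa
Rps9 (chr7:3704031-3704055, plus strand): cttgtctctctttgtctcgggcctg
Rpsa (chr9:120127756-120127780, plus strand): ttatttaaggacgtcatttccggcc

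Values are FPKM, fragments per kilobase of transcript scaled to the mapped fragments of the library, which are relative to the rest of each library and scaled by transcript length. Over the 64 abundant members log2 mean FPKM still correlated with log2 transcript length (Pearson r = -0.58, a description), and the highest, Rps27, has the shortest annotated transcript (345 bases) and the lowest, Rps15a, the longest (5179 bases), so the order of levels between genes is uncertain. Of the 68 members, 64 averaged at least 30 FPKM over the 27 libraries, and none of these 64 was at 0 in any library. The highest means were those of Rps27 (3519 FPKM), a small-subunit protein, of Rplp1 (2017 FPKM), part of the stalk that recruits elongation factors, and of Rps29 (1820 FPKM). The other 4 were paralogs: Rpl7l1 averaged 20.0 FPKM, Rpl3l, known from striated muscle, averaged 1.53 FPKM, Rpl39l averaged 0.492 FPKM, and Rpl10l, known from testis, was listed at 0 in all 27. Just inside that level was Rps15a at 49.0 FPKM.

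Neutrophils stood apart from every other preparation in how much of their measured mRNA encoded ribosomal proteins. The 68 members took 4.61, 4.87 and 5.25% of all FPKM in WT neutrophils and 5.40, 4.995 and 5.73% in tumour neutrophils. In the 21 other libraries the share ran from 10.26% to 23.5%, with the lowest in a tumour macrophage library. Total lung cells held most, at 23.5, 20.0 and 22.2% in WT lung and 16.9, 17.3 and 18.3% in tumour lung, and these groups did not overlap. Macrophages held 13.6 and 13.9% in WT lung and 13.1, 13.4 and 10.26% in tumour lung, monocytes 16.6 and 17.4% in WT lung and 15.7 and 16.5% in tumour lung. Epithelial cells held 13.8, 14.95 and 13.5% in WT lung and 13.7, 13.8 and 16.3% in tumour lung. In bulk RNA, fewer cells of a type and less RNA per cell cannot be told apart. Some marker genes were listed at 0 throughout a WT group but not throughout its tumour counterpart, and so add nothing to the sum there. They were Sftpc in total lung cells, S100a9 in neutrophils, and Sftpa1 and Slc34a2 in epithelial cells. Their part in these shares, and in the scaling to equal summed FPKM used below, was not tested.

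**Figure D1:**
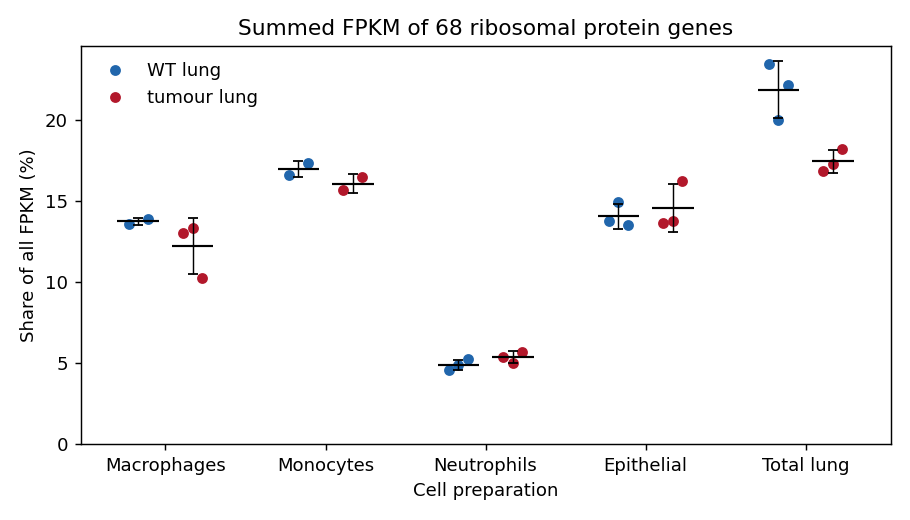
Share of all FPKM (%, vertical axis) taken by the 68 ribosomal protein genes in each library (points), by cell preparation and lung, with the group mean (horizontal line) and SD (error bar). The 6 neutrophil libraries lie between 4.61 and 5.73%, below the 21 others, and the WT total lung libraries lie highest.

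Gene by gene, the lowest group mean of all 64 members was in neutrophils, in WT neutrophils for 36 and in tumour neutrophils for 28, and the highest was in WT total lung cells for 44. In 61 of the 64, all 6 neutrophil libraries were below all 21 others, the exceptions being Rps27, Rps27l and Rps9. Neither count was made over all genes, so how particular they are to the members is unknown. Genes at large were often lower too. In the tests below, 57.1% of them were lower in WT neutrophils than in WT monocytes and 50% than in WT macrophages. Across the 27 libraries any pair of the 64 members correlated with a median Pearson r of 0.954 on the log2 scale, and of 0.826 over the 21 libraries without neutrophils, where libraries share groups and the median is a description only. Each member was also correlated with the mean of the other members, a measure unlike the pairwise r. Least like the rest were Rps9 (r = 0.568), Rps27l (0.588) and Rps27 (0.696), against 0.903 for Rps2, the next lowest.

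The WT populations were compared on log2(FPKM + 1), a scale that understates the changes of low genes, with limma and Benjamini-Hochberg adjusted p values over all genes that reached 1 FPKM in at least 2 libraries, and a gene was called at an adjusted p under 0.05. Against WT monocytes, 65 of 67 members tested (97.0%) were lower in WT neutrophils, where 57.1% of all genes tested were lower, and 1 was higher, where 12.3% of all genes were. The 64 abundant members had a median log2 difference of -1.94, a ratio of 0.260, beside -0.68 over all genes. Against WT macrophages, 64 members (95.5%) were lower, beside 50% of all genes, none was higher, beside 17.9%, and the median was -1.55 beside -0.45. With epithelial cells in the first place, 64 members (95.5%) were higher in WT epithelial cells than in WT neutrophils, beside 65% of all genes, and 2 were lower, beside 17.3% (82.2% in either direction). Rpl39l is among the members lower against macrophages, and Rpl3l is among the 2 lower here. Both passed the filter only through groups where they are high, so these calls are a description. Under upper-quartile scaling 63, 56 and 49 members were called with these differences and 1, 3 and 3 the other way. The shares of all genes given above are without this scaling, so these counts cannot be set against them. Under upper-quartile scaling, which moved the median of all genes from -0.68 to -0.15, the median over the members tested against monocytes was -1.11 in place of -1.93.

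Other genes of protein synthesis and of respiration were lower in WT neutrophils too. Against WT monocytes 74 of 75 mitochondrial ribosomal protein genes were lower (median -1.79), as were 37 of 38 initiation factors (-1.66), 45 of 48 biogenesis genes (-1.61) and 71 of 79 oxidative phosphorylation subunits (-1.32). Against WT macrophages the counts were 75 of 75, 30 of 38, 43 of 48 and 72 of 79. Markers of other cells differed between these gates as well. Endothelial markers were lower in WT neutrophils than in WT monocytes in 10 of 10 (79.3 to 98.2 against 657.6 to 1021 FPKM) and fibroblast markers in 5 of 8, and B cell markers were higher than in WT macrophages in 8 of 10 (217 to 305 against 72.2 to 75.9 FPKM). Their part was not tested.

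Rpsa, a small-subunit protein also known as the precursor of the laminin receptor, differed most. Its FPKM was 158, 189 and 211 in WT neutrophils, 1538 and 1856 in WT monocytes and 1326 and 1318 in WT macrophages. Neutrophils were lower by a wide margin and the groups did not overlap, with a log2 difference of -3.19 ± 0.21 (SE, limma adjusted p = 1.91e-11) from monocytes and -2.83 ± 0.21 (limma adjusted p = 5.96e-11) from macrophages. Rpl10a, of the large subunit's L1 stalk, was at 86.8, 76.0 and 98.1 FPKM in WT neutrophils, and its difference from monocytes was -2.95 ± 0.16 (limma adjusted p = 1.99e-12). Rpl32 in the contrast with monocytes (-2.79) and Rps18 in that with macrophages (-2.43) came next. Rps19, a small-subunit assembly protein known from Diamond-Blackfan anaemia, led the contrast with epithelial cells: 1992, 2011 and 2092 FPKM in WT epithelial cells against 236.6, 202.8 and 263.6 in WT neutrophils, 8.67 times as high. Rpl3, which lies near the peptidyl transferase centre, was 5.80 times as high there.

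Rps27 and Rps9, both small-subunit proteins, kept high levels in neutrophils. Rps27 was at 2685, 2813 and 2517 FPKM in WT neutrophils, above the 2131 and 2221 FPKM of WT macrophages. That difference of 0.29 ± 0.19 was not called (limma adjusted p = 0.175). Rps9, which lies at the mRNA entry of the small subunit, was at 1426, 1709 and 1572 FPKM in WT neutrophils, at 1288 and 1393 in WT macrophages and at 1095, 1044 and 1102 in WT epithelial cells. Rps9 was higher in WT neutrophils than in WT epithelial cells, with a log2 difference of -0.53 ± 0.14 for epithelial cells minus neutrophils (limma adjusted p = 0.00106). Under quantile normalization that difference was -0.042 and not called. Both genes were lower in WT neutrophils than in WT monocytes, Rps27 by a log2 difference of -0.69 and Rps9 by one of -0.52, and under upper-quartile scaling both differences turned positive, at 0.13 and 0.30, and were not called. Rpl3l was the 1 member higher in WT neutrophils than in WT monocytes, at 5.23, 4.35 and 3.98 FPKM against 0.614 and 0.987, and it passed the filter on low values only through the groups where it is high.

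Epithelial cells and macrophages of WT lung differed in fewer members. In WT epithelial cells 8 of 67 (11.9%) were higher and 8 were lower, beside 43.4% and 22.9% of all genes. These counts moved with the scaling, to 28 higher (41.8%, beside 30.2% of all genes) and 7 lower under quantile normalization and 5 and 20 (29.9% beside 28.8%) under upper-quartile scaling, and to 5 and 5 without WT macrophage replicate 1 and 6 and 4 without replicate 2. Without WT epithelial replicate 8 they were 7 and 5, and without replicate 10 they were 8 and 5. Rpl21, a large-subunit protein, was at 608, 620 and 603 FPKM in WT epithelial cells and at 236 and 244 in WT macrophages, a log2 difference of 1.34 ± 0.14 (limma adjusted p = 2.02e-08) with no overlap. Rps19 was higher by 1.06 and Rps27 by 0.66. Rplp1 was at 1604, 1533 and 1732 FPKM in epithelial cells and at 2623 and 2887 in macrophages, a difference of -0.76 ± 0.15 (limma adjusted p = 0.000167). Rpsa (-0.55) was lower as well, and its call was lost when either WT macrophage replicate or WT epithelial replicate 8 or 10 was left out, with limma adjusted p from 0.0783 to 0.0945. Endothelial markers were higher in WT epithelial cells than in WT macrophages in 10 of 10 (189.7 to 369.5 against 68.8 to 75.5 FPKM), fibroblast markers in 8 of 8, T cell markers in 7 of 9 and B cell markers in 7 of 10, and their part was not tested.

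Neutrophils of tumour lung had ribosomal protein genes called in both directions. Of 66 members tested, 15 (22.7%) were higher and 13 (19.7%) were lower than in WT neutrophils, beside 33.3% and 25.8% of all genes, so both shares lay below those of the genes at large under this scaling. The 64 abundant members ranged from -1.22 to 1.24 with a median of 0.01, beside 0.11 over all genes. Tumour neutrophil replicate 7 lay below its other replicates in 64 of 64 members, with a median of -0.29, and without it 20 were higher and 12 lower. Without tumour replicate 6 or 8 the higher members numbered 7, without WT replicate 5 they numbered 8, and without WT replicate 6 they numbered 10. The counts moved with the scaling: quantile normalization gave 36 higher (54.5%, beside 29.7% of all genes) and 5 lower, scaling to equal summed FPKM gave 28 (42.4% beside 45.2%) and 8, and upper-quartile scaling gave 9 and 20 (30.3% beside 28.9%). Whether members were called more or less often than other genes thus turned with the scaling. With the members' own median held equal, an alternative chosen after seeing the data, 5 were higher and 16 lower. The median of all genes was 0.05, 0.31 and 0.03 under the first 3 scalings.

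**Figure D2:**
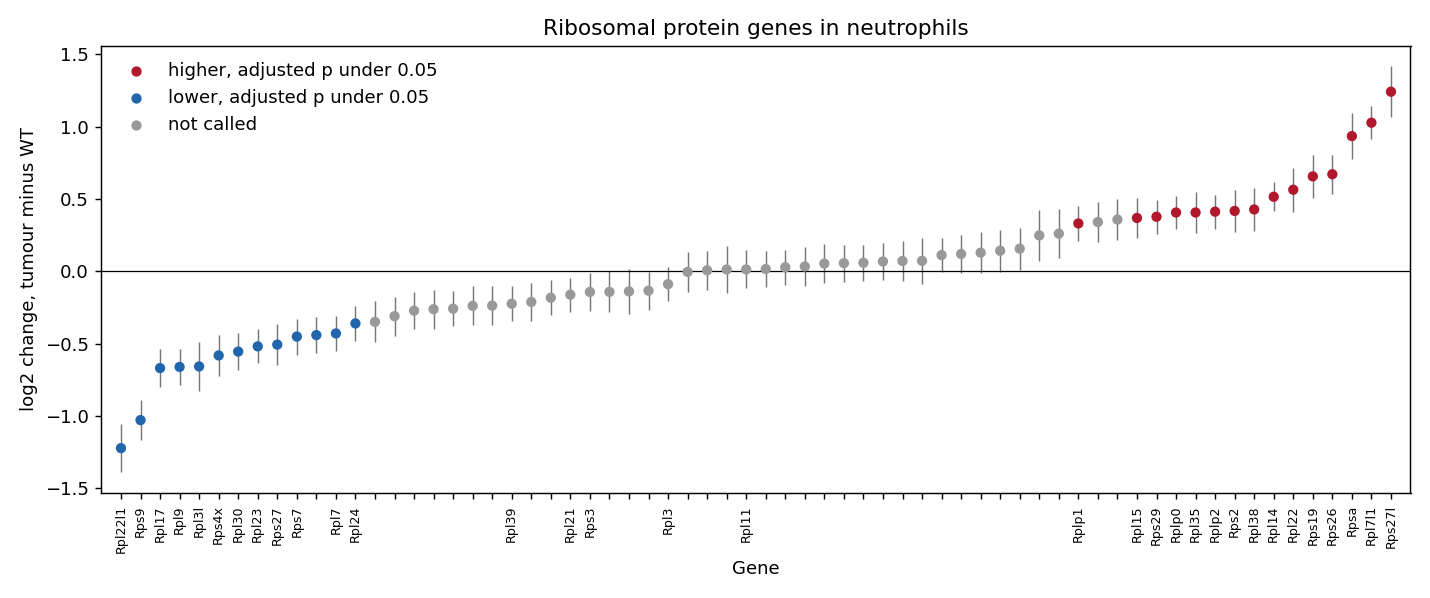
Log2 change of each ribosomal protein gene tested (tumour minus WT neutrophils, n = 3 and 3, vertical axis), in order of size, with limma's SE as bars. Red points are the 15 genes called higher and blue points the 13 called lower at an adjusted p under 0.05, and labels are given for genes named in the text.

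Rps27l, the paralog of Rps27 and a known p53 target, changed most. Its FPKM was 30.7, 36.4 and 29.2 in WT neutrophils and 79.6, 59.4 and 96.3 in tumour neutrophils. All 3 tumour libraries were above all 3 WT libraries, by 2.44-fold in the mean and by 1.24 ± 0.18 on the log2 scale (SE, limma adjusted p = 0.000486). Its parent moved the other way: Rps27 was at 2685, 2813 and 2517 FPKM in WT and at 1819, 1737 and 2098 in tumour neutrophils, a change of -0.51 ± 0.14 (limma adjusted p = 0.0131) with no overlap. Leaving out WT neutrophil replicate 5 or 6 put limma's adjusted p of Rps27 at 0.0567 or 0.0502, and with equal summed FPKM its change was -0.27.

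Rpl7l1, a nucleolar relative of Rpl7, was at 5.39, 6.58 and 5.72 FPKM in WT neutrophils and at 13.2, 12.4 and 13.4 in tumour neutrophils. The groups did not overlap, with a change of 1.03 ± 0.11 (limma adjusted p = 0.000143), while Rpl7 itself changed by -0.43 ± 0.12 (limma adjusted p = 0.0124), a change that was -0.02 under quantile normalization and -0.20 with equal summed FPKM and not called in either. Rpsa was at 375, 291 and 406 FPKM in tumour neutrophils against 158, 189 and 211 in WT, and the change was 0.93 ± 0.16 (limma adjusted p = 0.00128). Tumour neutrophils remained under the Rpsa level of every library of another preparation, the lowest of which was 788 FPKM.

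The 3 proteins of the stalk, which recruits the elongation factors to the large subunit, rose together. Rplp0 was 1.33-fold, Rplp1 1.26-fold and Rplp2 1.33-fold higher in tumour neutrophils, with no overlap between groups. Their limma adjusted p values were 0.0144, 0.0421 and 0.0146. Each call was lost when tumour replicate 6 or 8 was left out (0.0526 and 0.0602 for Rplp0, 0.122 and 0.136 for Rplp1, 0.0558 and 0.0522 for Rplp2), those of Rplp0 and Rplp1 also without WT replicate 5 (0.0582 and 0.134) and that of Rplp1 without WT replicate 6 (0.107). Under quantile normalization their changes were larger, at 0.81, 0.73 and 0.80, as with equal summed FPKM, at 0.64, 0.56 and 0.65. Upper-quartile scaling made them smaller, at 0.31, 0.23 and 0.32, and Rplp1 was then not called (limma adjusted p = 0.113). Rps26, at the mRNA exit of the small subunit, rose 1.60-fold and Rps19 rose 1.58-fold. Rpl22, an RNA-binding large-subunit protein needed for T cell development, rose 1.51-fold. Rpl14, Rpl15, Rpl35, Rpl38, Rps2 and Rps29 rose by 0.37 to 0.52 on the log2 scale. Of the 13 members that were higher and had a matched start, 5 had the tract at the start (Rpl14, Rpl15, Rpl35, Rpl38 and Rplp2, 38.5%), and of the 9 that were lower 1 had it (Rps27, 11.1%), given as a description with no test. With a start up to 5 bases either side, 8 of the higher (61.5%) and 3 of the lower members (33.3%) had it.

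Rpl22l1, the paralog of Rpl22, fell most. Its FPKM was 83.3, 57.9 and 52.2 in WT neutrophils and 25.8, 26.1 and 27.7 in tumour neutrophils. The tumour libraries lay close together and below all WT libraries, with a change of -1.22 ± 0.17 (limma adjusted p = 0.000395). Rps9 was at 1426, 1709 and 1572 FPKM in WT and at 821, 677 and 810 in tumour neutrophils, a change of -1.03 ± 0.14 (limma adjusted p = 0.000386) with no overlap and -0.57 under quantile normalization, so the level that set Rps9 apart in WT neutrophils was lower in those of tumour lung. Rpl17, which lines the exit tunnel, fell by 0.67, and Rpl9 fell by 0.66. Rps4x, an X-linked small-subunit protein, fell by 0.58, and under quantile normalization Rpl17 (-0.23) and Rps4x (-0.22) were not called, nor was Rps4x with equal summed FPKM (-0.35). Rpl30 fell by 0.55, and Rpl23, Rps7, Rpl7 and Rpl24 fell by 0.36 to 0.52. Rpl3l was at 3.10, 1.82 and 2.67 FPKM against 5.23, 4.35 and 3.98 (-0.66 ± 0.17, limma adjusted p = 0.00854). Rps3, an mRNA entry protein (-0.14), Rpl3 (-0.09) and Rpl11, which can bind Mdm2 (0.01), were not called in neutrophils, nor was Rpl39 (-0.22).

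**Figure D3:**
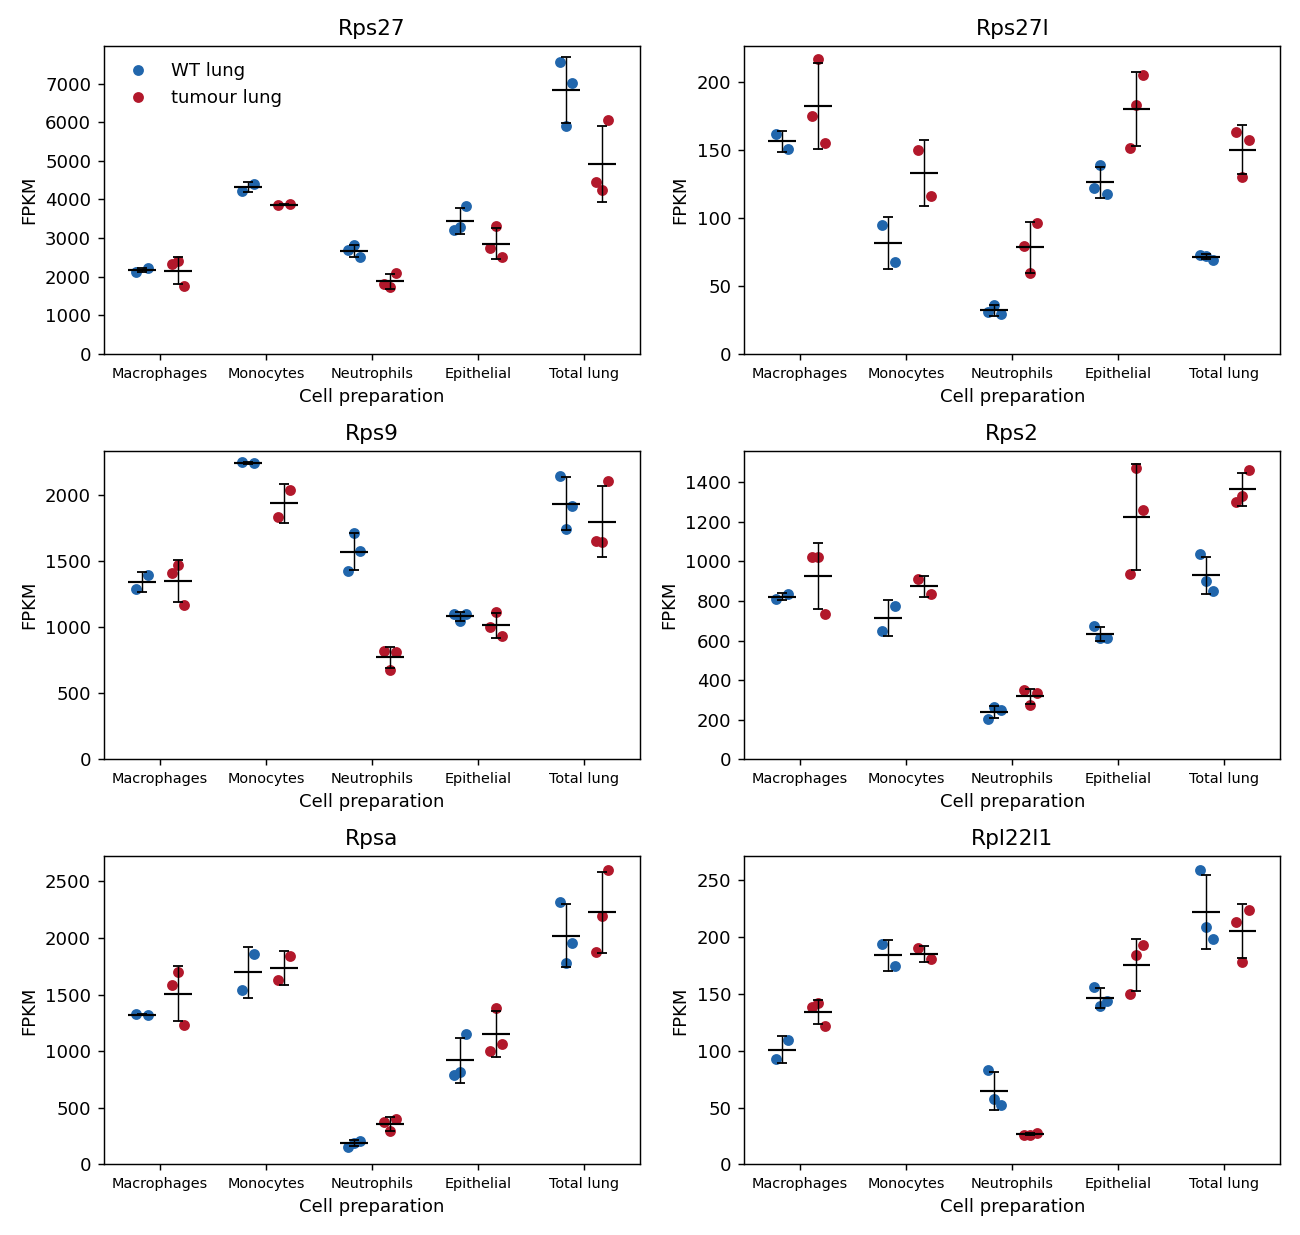
FPKM (vertical axis, from 0) of 6 ribosomal protein genes in every library (points), by cell preparation and lung, with group means and SD. Rps27 and Rps9 stay high in WT neutrophils, Rpsa is lowest there, Rps27l and Rps2 are higher in tumour than in WT lung in the mean of every preparation, and Rpl22l1 is lowest in tumour neutrophils.

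Mitochondrial ribosomal proteins and respiratory chain subunits were mostly higher in tumour neutrophils. The counts of the lists here stand beside 33.3% of all genes higher and 25.8% lower. Of 74 mitochondrial ribosomal protein genes tested, 59 were higher and 1 lower, with a median change of 0.66, led by Mrpl52 (16.1 ± 3.67 to 252 ± 53.3 FPKM, SD, n = 3) and Mrpl42 (4.31 to 28.1 FPKM). Of 76 oxidative phosphorylation subunits 55 were higher and 2 lower, among them Ndufc1 (6.28 to 28.4 FPKM) and Atp5g1 (9.14 to 33.0 FPKM). Of 46 ribosome biogenesis genes 25 were higher and 4 lower, among them Nop10 and Nhp2 of the pseudouridylation particle (6.54 to 22.03 and 4.93 to 15.02 FPKM). Initiation factors counted 22 higher and 3 lower of 38, with Eif2b5 and Eif3b up by 1.45 and 1.26. The list of elongation, termination and related genes counted 5 and 3 of 9, with Eef1e1 up by 1.51 and the ribosome recycling factor Abce1 by 1.12. Other TOP mRNAs leaned the other way, with 3 higher and 7 lower of 16, among them Fau, which encodes the small-subunit protein Rps30 as a fusion (1557 to 1045 FPKM), and the histone chaperone Nap1l1 (51.7 to 32.4 FPKM). Myc, an inducer of ribosome production, was lower (9.29 ± 3.30 to 3.20 ± 0.976 FPKM), and Tsc2, an inhibitor of mTOR, was higher (16.7 to 35.1 FPKM) among 4 higher and 3 lower of 15 regulators. Of 12 p53 targets 6 were higher and 3 lower, with the largest changes in Sesn2 (46.1 to 16.7 FPKM) and Sesn1 (8.36 to 2.24 FPKM). The shares of regulators higher (26.7%) and lower (20%) and of p53 targets lower (25%) lay near or below those of all genes. The share of p53 targets higher (50%) lay above that of all genes, and their median change was 0.52, although the 2 named fell.

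Markers of other cells moved with these changes. Summed over the list, alveolar type II markers ran from 624 to 2260 FPKM in WT neutrophils and from 59.0 to 90.3 in tumour neutrophils, with 9 of 9 lower. B cell markers ran from 217 to 305 and from 14.8 to 80.4 FPKM, with 10 of 10 lower, and endothelial markers from 79.3 to 98.2 and from 14.2 to 27.1 FPKM, with 10 of 10 lower. Fibroblast markers had 5 of 7 lower, T cell markers 2 of 7 lower and macrophage markers 3 of 5 higher, and none of these lists had a defining marker listed at 0 throughout either neutrophil group. Neutrophil markers themselves summed to between 25560 and 30720 FPKM in tumour and between 28960 and 31240 in WT neutrophils, with 1 higher and 6 lower of 9 and S100a9 listed at 0 in the WT libraries. Their part in the member changes was not tested.

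Macrophages showed almost no called member, and leaving out 1 library changed that on FPKM as deposited. With all libraries, Rpl22l1 was the only member higher of 67 (1.5%) and Rpl3l the only one lower, beside 20.3% and 17.7% of all genes. Rpl22l1 was at 138, 142 and 122 FPKM in tumour and 92.5 and 109 in WT macrophages (0.41 ± 0.12, limma adjusted p = 0.0365), a call lost in 10 of 17 alternatives. Rpl3l was at 0.558, 0.455 and 1.41 FPKM in tumour and 4.66 and 3.21 in WT macrophages (-1.47 ± 0.26, limma adjusted p = 0.00559), a call that was lost without WT replicate 1 (limma adjusted p = 0.0662). It passed the filter on low values only through the WT libraries, where it is high, so its call is a description. Tumour macrophage replicate 3 lay below the other 2 libraries of its group in 64 of the 64 abundant members, with a median of -0.39, while its median over all genes was 0.04. Without it, 31 members (46.3%) were higher, by 0.21 to 0.48, and 3 lower, beside 23.8% and 21.2% of all genes. That fit was not repeated under another scaling. Summed FPKM was 463300 and 464100 in tumour replicates 1 and 2 and 382700 and 393700 in the WT libraries. As a share of that sum the members were not higher, at 13.1 and 13.4% against 13.6 and 13.9% in WT. Without tumour replicate 1 or 2, or WT replicate 2, none was higher and 1 was lower, and without WT replicate 1 none was called. Under quantile normalization none was higher and 8 were lower. Of 75 mitochondrial ribosomal protein genes 2 were higher and 14 lower (18.7%), and of 48 biogenesis genes 1 was higher and 10 lower (20.8%), shares near the 17.7% of all genes that were lower. Initiation factors counted 5 higher and 3 lower of 38, other TOP mRNAs 3 and 1 of 15, regulators 3 and 3 of 15, with Myc at 16.7 FPKM against 47.3, and p53 targets 4 and 3 of 13. Endothelial markers were lower in 9 of 10 (8.69 to 14.1 against 68.8 to 75.5 FPKM), alveolar type II markers in 6 of 9, and neutrophil markers were higher in 4 of 7 (183 to 556 against 45.3 to 71.4 FPKM), with none of these lists' markers listed at 0 throughout either group. Their part was not tested.

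Monocytes had no called member and no called gene (0% in either direction by limma), with 2 libraries on each side and a lowest adjusted p of 0.0912. At an unadjusted p under 0.05, 1 member was higher and 0 were lower of 65, beside 744 and 815 of 10366 genes. That member was Rps27l, at 95.1 and 67.9 FPKM in WT and 150 and 116 in tumour monocytes (0.71 ± 0.23, limma adjusted p = 0.268). When all 10 groups shared 1 estimate of the spread, 2 members (2.99%) were called higher, beside 3.95% of all genes. Without tumour monocyte replicate 5, 161 genes were called higher and 149 lower, with no member among them.

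Epithelial cells had 4 members higher of 65 (6.2%) and 2 lower (3.1%), beside 14.9% and 8.89% of all genes. Rps2, which forms part of the mRNA entry channel, was at 674, 612 and 612 FPKM in WT and at 938, 1473 and 1260 in tumour epithelial cells, with no overlap and a change of 0.93 ± 0.19 (limma adjusted p = 0.0201). Rpl15 (181 ± 6.90 to 276 ± 49.2 FPKM, SD, n = 3), Rps27l (126 ± 11.4 to 180 ± 27.2 FPKM) and Rpl7l1 (23.4 to 31.1 FPKM) were the other rises. Rps19 was at 1992, 2011 and 2092 FPKM in WT and at 1502, 1212 and 1148 in tumour epithelial cells, so the level that led the WT contrast fell by 0.67 (limma adjusted p = 0.0317), and Rpl21 fell by 0.65 (limma adjusted p = 0.0206). All 6 calls were lost without tumour replicate 9 and without WT replicate 8, 9 or 10, and without tumour replicate 11 there were 1 higher and 1 lower. Without tumour replicate 10 there were 8 higher and 3 lower. Biogenesis genes were higher in 27 and lower in 0 of 48, with Nhp2 at 13.9 against 39.9 FPKM, and mitochondrial ribosomal proteins in 17 and 1 of 75. Myc was higher here (9.82 ± 3.15 to 24.0 ± 9.28 FPKM), as was Eif4ebp1, a translation inhibitor that mTOR switches off. In the Epcam+ libraries the surfactant genes Sftpc and Sftpb were listed at 0 in both groups, endothelial markers were lower in 10 of 10 (11.9 to 59.97 against 189.7 to 369.5 FPKM) and B cell markers in 8 of 9 (39.3 to 51.5 against 102.9 to 178.5 FPKM), and their part was not tested.

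Total lung cells of tumour lung had 5 members higher of 67 (7.5%) and 0 lower by limma, beside 22.1% and 20.4% of all genes, and at an unadjusted p under 0.05 the counts were 5 and 3. Rps27l was at 73.1, 72.2 and 69.4 FPKM in WT and at 163, 130 and 158 in tumour lung, a change of 1.05 ± 0.11 (limma adjusted p = 0.000589) with no overlap. Rps2 was at 1035, 901 and 852 in WT and at 1301, 1333 and 1460 FPKM in tumour lung (0.56 ± 0.14, limma adjusted p = 0.0176), a call lost without WT replicate 12 or 13 (0.0644 and 0.0874), and Rpl7l1, Rpl39l and Rpl3l were the other 3, the last 2 below 3 FPKM in all of these libraries and past the filter on low values only through the tumour libraries, where they are high, so that these 2 calls are a description. The 64 abundant members had a median of -0.11, beside -0.01 over all genes, and the members' share of FPKM was lower in tumour lung. Quantile normalization gave 39 members lower (58.2%, beside 22.1% of all genes) and scaling to equal summed FPKM 30 (44.8% beside 29.9%), the latter with the median of all genes moved from -0.01 to -0.18. Without tumour replicate 14, which lay above the other replicates in 64 of 64 members, 4 were higher and 6 were lower. Without tumour replicate 12, 3 were higher, and without WT replicate 12 or 13, 2 were. Mitochondrial ribosomal proteins were higher in 41 and lower in 0 of 75. B cell markers were lower in 10 of 10 (220.7 to 600.0 against 977 to 1722 FPKM), endothelial markers in 10 of 10 (77.2 to 189 against 435 to 934 FPKM), fibroblast markers in 7 of 8 and alveolar type II markers in 8 of 9. Macrophage markers were higher in 7 of 7 (865 to 1589 against 128.5 to 174.7 FPKM) and neutrophil markers in 5 of 9. Among these lists Sftpc was listed at 0 in the WT libraries, and their part in the lower share was not tested.

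**Figure D4:**
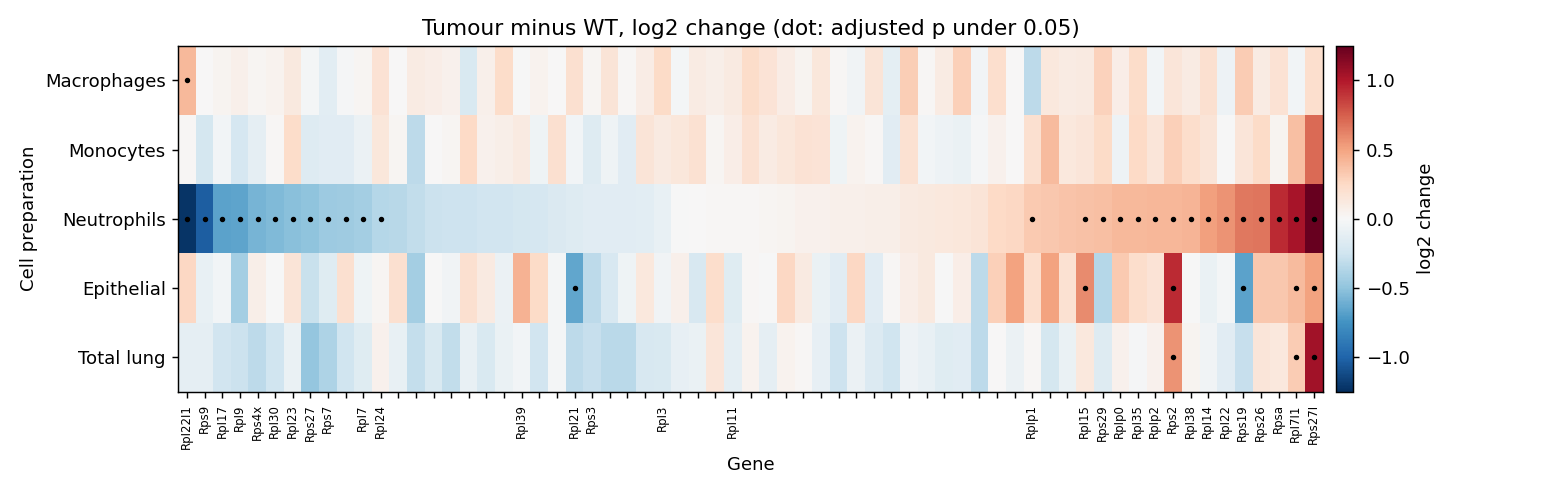
Log2 change (colour, tumour minus WT) of the 65 ribosomal protein genes tested in all 5 preparations (columns, in the order of the neutrophil change), with a dot where limma's adjusted p was under 0.05 and labels for genes named in the text. Rps27l at the right end is positive in all 5 preparations, and the calls at the left end are in neutrophils except that of Rpl22l1 in macrophages, where it is positive.

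Across the 5 preparations, 10 members had a positive change in all 5 (Rps27l, Rpl15, Rps2, Rps26, Rpsa, Rpl10a, Rpl13, Rpl28, Rpl7a and Rps12), and Rps27 and Rps7 had a negative one. Of these, Rpl10a, Rpl13, Rpl28, Rpl7a and Rps12 were called in no preparation. The same count was not made over all genes, so how particular it is to the members is unknown. Rps27l and Rps2 were called in 3 preparations each: neutrophils, epithelial cells and total lung cells. Rpl7l1 was called in the same 3. In total lung cells its call was lost without tumour replicate 12 (limma adjusted p = 0.0599), without WT replicate 11, 12 or 13 (0.0795, 0.0561 and 0.0675) and under scaling to equal summed FPKM. The call of Rps2 there was lost without WT replicate 12 or 13. In epithelial cells the calls of Rps27l, Rps2 and Rpl7l1 were each lost without tumour replicate 9 or WT replicate 8, 9 or 10. Those of Rps27l and Rpl7l1 were also lost without tumour replicate 11.

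The paralogs changed their standing beside their parents. Rps27l stood at 1.2 ± 0.0833% of the Rps27 level in WT neutrophils and at 4.13 ± 0.625% in tumour neutrophils (SD, n = 3). In total lung cells it stood at 1.06 ± 0.143% and 3.11 ± 0.532%, in epithelial cells at 3.69 ± 0.585% and 6.40 ± 1.51%, and in macrophages, where it was highest, at 7.19% (n = 2) and 8.46 ± 0.820%. Rpl22l1 exceeded Rpl22 in WT neutrophils, at 220% to 454% of it, and was below it in tumour neutrophils, at 75.1% to 98.7%. In every other group its mean stood between 102% and 161% of Rpl22. Rpl7l1 stood at 1.95 ± 0.126% of Rpl7 in WT and 5.83 ± 0.380% in tumour neutrophils. Rpl3l reached 4.16% of Rpl3 in WT neutrophils and was under 1% in all groups of the other preparations. Rpl39l stayed under 0.2% of Rpl39, an exit tunnel protein, in all groups.

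Whether the tumour effect differed between preparations was tested with an interaction term. Between neutrophils and macrophages 6 members of 67 (9.0%) had a higher and 8 (11.9%) a lower effect in neutrophils, beside 21.5% and 17.7% of all genes. Rpl7l1 (1.06), Rps27l (1.03) and Rpsa (0.76) led upwards and Rpl22l1 (-1.63), Rps9 (-1.03) and Rpl9 (-0.73) downwards. Without tumour macrophage replicate 3 the counts were 6 and 16. Quantile normalization gave 48 higher (71.6%, beside 21.4% of all genes) and 1 lower and equal summed FPKM 32 (47.8% beside 37.3%) and 2, so the members' share passed that of all genes under both, with the median of all genes at 0.06 and 0.33 in place of 0.03, and under quantile normalization the differences of Rps9 (-0.08) and Rpl9 (0.0037) were not called. The call of Rpsa was lost without tumour macrophage replicate 3, either WT macrophage replicate, tumour neutrophil replicate 6 or 8 or WT neutrophil replicate 5, with limma adjusted p from 0.0685 to 0.0907. Between neutrophils and epithelial cells 7 (10.4%) were higher and 10 (14.9%) lower, beside 19.2% and 19.5%, and quantile normalization gave 24 (35.8% beside 18.8%) and 2, equal summed FPKM 17 (25.4% beside 26.0%) and 4. Rps19 (1.32), which rose in neutrophils and fell in epithelial cells, Rps27l (0.74) and Rps29 (0.73) led upwards and Rpl22l1 (-1.48), Rps9 (-0.93) and Rpl23 (-0.68) downwards. Under quantile normalization Rps27l (0.52), Rps9 (-0.37) and Rpl23 (-0.29) were not called, and Rps27l was not called without tumour neutrophil replicate 8 (limma adjusted p = 0.0635). Rpl3l is counted among the 6 higher against macrophages and the 10 lower against epithelial cells. It passed the filter on low values only through groups where it is high, so these calls are a description. The interactions share the neutrophil libraries with each other and with the neutrophil comparison.

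Mapping limits the values of some members. All 68 members were found in the GENCODE annotation of GRCm38, and 256 annotated pseudogenes are named after 50 of them. Of the 50-base words in the principal transcript, 98.6% of those of Rps27, 95.1% of Rpl35, 71.3% of Rps2, 65.6% of Rpl22l1 and 44.0% of Rpsa also occur in transcripts of other genes, so reads of these could be split or shared and their levels are uncertain. The figure is 26.8% for Rps9, 22.4% for Rps27l, 9.19% for Rpl7l1 and 5.19% for Rpl22. No 2 members shared such a word, Rps27 and Rps27l included. Rps27 lies at chr3:90212522-90213651 (minus strand) and, on the plus strand, Rps27l at chr9:66946086-66949516, Rps9 at chr7:3703993-3706897, Rpl22l1 at chr3:28805436-28807424, Rps2 at chr17:24718116-24721929 and Rpsa at chr9:120127689-120132369, each with 4 to 7 exons. Fragment counts were not analysed here, and relative depth, read from the spacing of the lowest values, ran from 0.624 to 1.58 of that of tumour macrophage replicate 1.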

How the data were processed

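The authors deposited FPKM per gene for 27 libraries (TruSeq chemistry, per the labels' protocols). Per the submitters' processing notes, the tools were CASAVA 1.8.2, TopHat2, Cufflinks and Cuffdiff, with mm10 (GRCm38). FPKM were used as deposited. Libraries were grouped by the labels. log2(FPKM + 1) was tested, for genes reaching 1 FPKM in 2 or more of the libraries compared, with limma 3.58.1 (R 4.3.3, intensity trend), with Benjamini-Hochberg adjusted p under 0.05, with the tumour and WT groups of each preparation fitted alone, and with all 10 groups in 1 fit for the WT contrasts and the interactions. The procedure was tested on simulated data. Members and gene lists were chosen with earlier results of these data known. Members named were fixed by role, by the 3 largest called changes each way without exact zeros, and by the highest and lowest means, and the others were named after their values were seen. Of other lists, the 2 largest called changes with at least 5 FPKM were named, where shown. Alternatives were other pseudocounts, filters, scalings, fits, a replicate block, each library left out and, added after seeing the data, the members' median held equal. Promoter starts are RefSeq (GRCm38.p6). FPKM are relative within a library, so a large change in a few abundant genes shifts all others. Some single members are counted and not reported by name here.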

Additional observations from a re-analysis of the deposited data

Results flagged for a closer look

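A difference of the tumour effect between preparations, tested by limma's interaction term, brought out 14 members for neutrophils against macrophages and 17 for neutrophils against epithelial cells, of 67 each (20.9% and 25.4%), below the 39.2% and 38.8% of all genes. Under quantile normalization 49 and 26 were called. Against macrophages the log2 differences were 1.06 for Rpl7l1, 1.03 for Rps27l, 0.76 for Rpsa, -1.63 for Rpl22l1, -1.03 for Rps9 and -0.73 for Rpl9. Against epithelial cells they were 1.32 for Rps19, 0.74 for Rps27l, 0.73 for Rps29, -1.48 for Rpl22l1, -0.93 for Rps9 and -0.68 for Rpl23. The macrophage gates of tumour and WT lung differed, and gate and tumour cannot be told apart there. No group had enough libraries for a test of single outlying values.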

How the results depend on the processing

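Counts of called members are given as higher and then lower unless 1 direction is named, with the value as reported in brackets. Of 75 changes of named members, 28 kept direction and call in every alternative, 42 lost the call in at least 1 and 9 reversed in at least 1. The cause of these moves was not tested.
In tumour macrophages (1 and 1), higher members numbered 0 without a filter on low values, under quantile, upper-quartile and equal-sum scaling, with the members' median held equal and in the fit of all 10 groups. Lower members numbered 0 with a filter of 5 FPKM, 8 under quantile and 2 under equal-sum scaling and 2 with the members' median held equal. In tumour monocytes (0 and 0) the fit of all 10 groups called 2 higher. In tumour neutrophils (15 and 13), quantile normalization gave 36 and 5, upper-quartile scaling 9 and 20, equal-sum scaling 28 and 8, and the members' median held equal 5 higher. In tumour epithelial cells (4 and 2), the members' median held equal gave 2 and 4, the fit of all 10 groups 7 and 5, and lower members numbered 1 without a filter, 4 with a filter of 5 FPKM and 4 with robust empirical Bayes. In tumour total lung cells (5 and 0), a filter of 5 FPKM gave 3 higher, and lower members numbered 39 under quantile, 3 under upper-quartile and 30 under equal-sum scaling, 1 with the members' median held equal and 3 in the fit of all 10 groups.
In WT neutrophils against WT monocytes (1 and 65), the filter of 5 FPKM gave 0 higher and the members' median held equal 27 and 17, which by its construction removes the shift the members share. Against WT macrophages (0 and 64) it gave 28 and 18, and higher members numbered 1 under quantile and 3 under upper-quartile scaling and 1 in the fit of the 2 groups alone. In WT epithelial cells against macrophages (8 and 8), higher members numbered 28 under quantile, 5 under upper-quartile scaling, 24 with the members' median held equal and 13 in the fit of the 2 groups alone, and lower members 20 under upper-quartile and 13 under equal-sum scaling, 13 with the members' median held equal and 14 in the fit of the 2 groups alone. Against neutrophils (64 and 2), the members' median held equal gave 21 and 23, and lower members numbered 1 with the filter of 5 FPKM and under quantile normalization. Members with a differing tumour effect between neutrophils and macrophages (14) numbered 49 under quantile and 34 under equal-sum scaling and 22 with the members' median held equal, and between neutrophils and epithelial cells (17) 26 under quantile normalization.
Leaving out 1 library at a time gave 0 to 31 higher and 0 to 3 lower members in tumour macrophages, 7 to 20 and 10 to 13 in neutrophils, 0 to 8 and 0 to 3 in epithelial cells and 2 to 5 and 0 to 6 in total lung cells. It gave 10 to 22 differing members between neutrophils and macrophages, and 5 to 8 higher and 4 to 6 lower in WT epithelial cells against macrophages.
Reversed differences were few. With the members' median held equal, Rps27 was at 1.39, Rps9 at 1.56, Rpl22l1 at 0.56 and Rps27l at 0.78 for WT neutrophils minus monocytes, Rpl22l1 at 1.03 for WT neutrophils minus macrophages, and Rps27 at -1.27 and Rpl22l1 at -0.44 for WT epithelial cells minus neutrophils. Upper-quartile scaling put Rps27 at 0.13 and Rps9 at 0.30 for WT neutrophils minus monocytes, Rpl22l1 at 0.0092 for neutrophils minus macrophages and Rps27 at -0.54 for epithelial cells minus neutrophils. Quantile normalization put the interaction of neutrophils minus macrophages at 0.0037 for Rpl9 and 0.16 for Rps4x.
Replicate numbers run on through the library titles of each lung across preparations, so the labels state no pairing and a block on them has no stated basis. Deviations of same-numbered libraries correlated from -0.17 to 0.082, which with so few libraries per group could not decide whether any were paired. The replicate block gave 26 and 2 members in macrophages, where tumour replicate 3 then has no partner, 3 and 8 in neutrophils, 0 and 0 in epithelial cells and 1 higher in total lung cells. A block fit was not run for monocytes, which share 1 number. Fragment counts were not analysed here, so counting error is unknown.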
